A study of Bos taurus with 6 samples.

Results

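Transcripts of 4 subunits of the oxidative phosphorylation machinery and of BCKDHB, an enzyme subunit of amino acid breakdown, were followed on 6 Affymetrix bovine arrays. The members were the rows of the authors' deposited table whose symbol or title names ATP5MC1 (older symbol ATP5G1), NDUFA11, UQCRFS1, COX8A or BCKDHB. This gave 5 rows for 5 genes, out of 158 rows in that table and 24016 probe sets on the array, controls left out. A further probe set shares its Bt number, the array's transcript cluster number, with the BCKDHB row. The 4 other members had no further probe set with their number. In the authors' deposited table all rows had a p-value below 0.001 for insulin against control, so the members' differences between the media chose them. They are given as a description, and whether a member passed the fit across all probe sets is given as a count that supports nothing.

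The tissue was cortex of fetal bovine ovaries obtained at a slaughterhouse and cut into pieces. Pieces were cultured for 2 days, 3 samples in control medium with TS+ (transferrin, selenous acid, bovine serum albumin and linoleic acid) and 3 samples with insulin (ITS+). The submitters describe insulin as a stimulus of follicle activation, and the pieces as enriched for primordial follicles in control medium and for primary follicles with insulin. The sources used here do not give the components of ITS+ other than insulin, the age of the fetuses, or whether replicates came from separate animals or cultures. The spread between replicates may therefore be technical. Pieces are a mixture of oocytes, follicle cells and stroma, and a signal cannot tell more cells of a type from more transcript in each cell. None of the 42 cell type marker genes in the lists carried a name in the authors' deposited table, so the tissue label was not checked against markers.

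The respiratory chain of the inner mitochondrial membrane passes electrons from NADH to oxygen through complexes I, III and IV. Protons are pumped out on the way, and ATP synthase uses their return to make ATP. Its subunits come from nuclear and mitochondrial genes, and all members studied here are nuclear genes. BCKDHB belongs to the matrix: it is the beta subunit of the E1 component of branched-chain keto acid dehydrogenase, which commits the carbon skeletons of leucine, isoleucine and valine to oxidation and yields NADH for the chain. In the ovary, oocytes rely on mitochondria for much of their ATP.

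With insulin, all 5 member rows had higher signals than in control medium, and on each of the 5 the lowest insulin array lay above the highest control array. The sizes differed widely. ATP5MC1, BCKDHB and NDUFA11 were higher by 1.78-fold, 1.74-fold and 1.61-fold as ratios of mean signals, UQCRFS1 by 1.27-fold and COX8A by 1.13-fold. Over all 14410 probe sets tested, 12.3% likewise had no insulin array at or below a control array. That share stands beside the count of 5 as background only, because the members were chosen on this contrast.

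NDUFA11, named by its protein symbol b14.7 in the table and matched to NDUFA11 through a RefSeq synonym, is an accessory subunit in the membrane arm of complex I. Its probe set Bt.5723.1.S1_at gave signals of 1170, 1258 and 1175 on control replicates 1, 2 and 3, and of 2060, 1770 and 1953 on insulin replicates 1, 2 and 3. Insulin replicate 2 was the lowest of its group and still lay 1.41-fold above the highest control array. The log2 difference, insulin minus control, was 0.67 with a limma SE of 0.12, on the scale log2(signal + 16) used throughout. Taken by replicate number, the ratios of insulin to control were 1.76, 1.41 and 1.66, the widest range of log2 differences among the 5 member rows (0.32).

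UQCRFS1 encodes the Rieske iron-sulfur protein of complex III, the subunit that takes electrons from ubiquinol. Probe set Bt.265.1.S1_at read 2350, 2252 and 2240 in control medium and 3003, 2823 and 2889 with insulin. The groups did not overlap, and the lowest insulin signal was 1.20-fold the highest control signal. The log2 difference was 0.35 with a limma SE of 0.11. The ratios by replicate number were 1.28, 1.25 and 1.29, so the difference varied little from pair to pair.

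COX8A is a small nuclear subunit of complex IV, cytochrome c oxidase. The identity of its row is less settled than that of the others: the symbol in the table is COX8, a RefSeq synonym of COX8A, whereas the title calls it the heart form of subunit VIII, a description otherwise used for COX8B. Probe set Bt.4637.1.A1_a_at read 4609, 4691 and 4556 in control medium and 5293, 5191 and 5195 with insulin. The groups stood apart, though the lowest insulin array was only 1.11-fold above the highest control array. The log2 difference was 0.18, with a limma SE of 0.11 and an SE of 0.015 from the row's own spread. The array's 18 probe sets for 6 control transcripts had ratios of insulin to control from 0.882 (actin) to 1.59 (GST), 14 of them above 1 and 4 below. In 5 of the 18 the groups did not overlap, 4 higher with insulin (3 for GST and 1 at the 3-prime end of GAPD, at 1.10) and 1 lower (the 5-prime actin probe set, at 0.884). After quantile normalization the COX8A difference was 0.13. The part of array scaling in the COX8A difference was not tested further.

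ATP5MC1 encodes subunit c of ATP synthase, which forms the rotating ring in the membrane. The same mature protein is also made from ATP5MC2 and ATP5MC3, neither of which was named in the authors' deposited table. Probe set Bt.1242.1.S1_at read 1760, 1626 and 1668 in control medium and 3182, 2760 and 3033 with insulin. The lowest insulin array was 1.57-fold the highest control array. The log2 difference was 0.82 with a limma SE of 0.12, the largest of the members, and ratios by replicate number were 1.81, 1.70 and 1.82. ATP5MC1 stood 187th among all 14410 probe sets tested when these were ordered from the highest log2 difference down, against 212th for BCKDHB, 308th for NDUFA11, 1432nd for UQCRFS1 and 3493rd for COX8A.

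**Figure D1:**
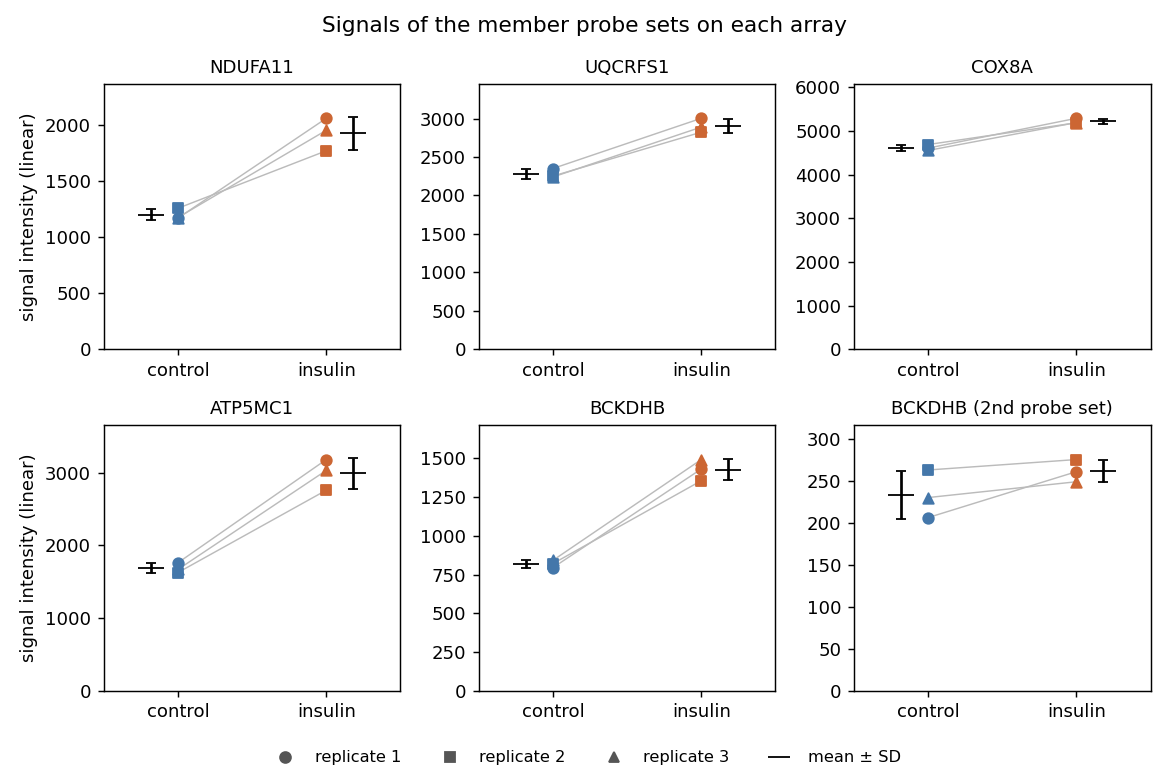
Linear signal intensity (y axes, from 0) of the 5 member rows and of the further BCKDHB probe set on the 3 control and 3 insulin arrays. Points are arrays, their shape gives the replicate number, grey lines join arrays of one number, and black bars are means ± SD. Insulin arrays lie above control arrays for each of the 5 member rows, while the further BCKDHB probe set overlaps, with 206 to 263 in control medium and 249 to 275 with insulin.

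BCKDHB was measured by 2 probe sets, and they disagreed. The row of the authors' deposited table, Bt.5412.1.S1_at, read 794, 820 and 841 in control medium and 1431, 1356 and 1492 with insulin. Its lowest insulin array was 1.61-fold the highest control array, and its log2 difference was 0.79 with a limma SE of 0.11. The further probe set Bt.5412.2.S1_at read 206, 263 and 230 in control medium and 261, 275 and 249 with insulin. Here the groups overlapped, since control replicate 2 lay above insulin replicates 1 and 3. The log2 difference of the further probe set was 0.16 with a limma SE of 0.13, and its ratios by replicate number were 1.27, 1.05 and 1.08. This probe set is outside the table and carries no name here, so that it reports BCKDHB rests on the shared Bt number alone. Its replicates also varied more, with a coefficient of variation of 12.2% in control medium against 2.88% for the row in the table.

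The members thus fell into a group of 3 with log2 differences of 0.67 to 0.82, and UQCRFS1 and COX8A below it. The unequal sizes were also read from ratios between members on the same array, from which a single scaling factor per array nearly cancels. A normalization that depends on signal level can still move them: after quantile normalization the log2 difference was 0.33 for UQCRFS1 and 0.13 for COX8A. The log2 ratio of ATP5MC1 to COX8A was higher with insulin by 0.64 (SE 0.067, 3 arrays per group), that of BCKDHB to COX8A by 0.61 (SE 0.050) and that of NDUFA11 to COX8A by 0.50 (SE 0.061). For the 2 smallest differences, the log2 ratio of UQCRFS1 to COX8A was higher by 0.17 (SE 0.031). The 3 large ones lay closer together. The log2 ratio of ATP5MC1 to BCKDHB was higher by 0.032 (SE 0.068) and that of BCKDHB to NDUFA11 by 0.12 (SE 0.060), with groups that overlapped for both, while that of ATP5MC1 to NDUFA11 was higher by 0.15 (SE 0.063) with no overlap. Taken by replicate number, the change of ATP5MC1 to BCKDHB was 0.011, 0.044 and 0.041, and that of BCKDHB to NDUFA11 was 0.029, 0.23 and 0.090. Each ratio was written in the order that made its mean change positive. These ratios are a description, since the contrast is the one on which the rows were chosen. Their SEs come from the arrays' own spread. The selection favoured rows with a small spread, so these SEs may be too small, and whether the members' differences are unequal was not tested.

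The members also differed in their own spread between arrays. From its own spread, COX8A had an SE of 0.015 and UQCRFS1 of 0.034, against 0.046 for BCKDHB, 0.069 for ATP5MC1 and 0.072 for NDUFA11. A small difference could enter the authors' deposited table only with a small spread, so the tight values of COX8A and UQCRFS1 follow from the selection. Limma, which draws the variance of each probe set toward that of all others, gave all 5 an SE of 0.11 to 0.12. In the limma fit across all probe sets, at an adjusted p threshold (Benjamini-Hochberg) of 0.05, ATP5MC1, BCKDHB and NDUFA11 passed and UQCRFS1, COX8A and the further BCKDHB probe set did not. Among all probe sets tested, 1.18% passed as higher, which is background for the 3 of 5 and, given how the members were chosen, no yardstick for them. The count of 3 depended on every array: it was 2 without control replicate 1, when NDUFA11 no longer passed, and 0 without any other single array, or with no filter on dim probe sets. With the replicate number as a block, the same 3 members passed and 3.10% of all probe sets did so as higher.

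**Figure D2:**
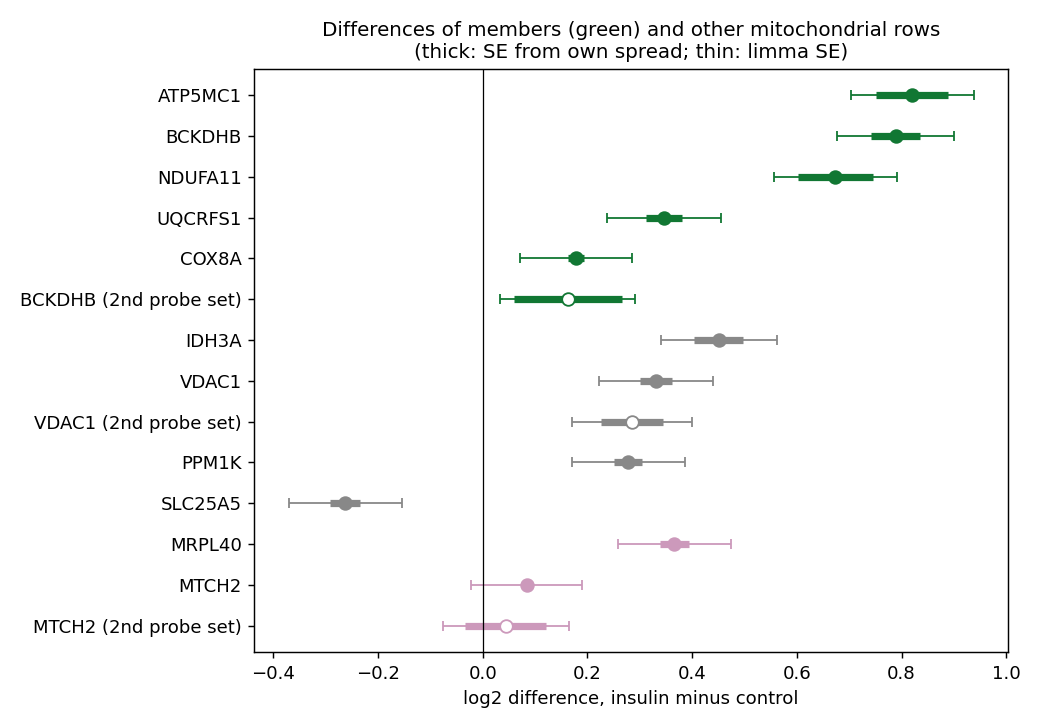
Log2 difference, insulin minus control (x axis), for the members with the further BCKDHB probe set (green), other named rows of the mitochondrial lists (grey) and the MRPL40 and MTCH2 rows (pink). Open symbols are further probe sets outside the authors' deposited table, thick bars are SE from the probe set's own spread and thin bars are limma SE; COX8A at 0.18 has the narrowest thick bar of the members, and SLC25A5 at -0.26 lies on the other side of 0.

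In the authors' deposited table the members ranged widely by both measures. BCKDHB had a fold of 1.71 and a p-value of 6.88e-05, the 14th smallest of 158. In the authors' deposited table ATP5MC1 had a fold of 1.76 (p = 0.000282), COX8A of 1.13 (p = 0.000313), UQCRFS1 of 1.27 (p = 0.000513) and NDUFA11 of 1.59 (p = 0.000719). NDUFA11 was thus the member nearest to that table's limit, and the largest p-value of any row of the authors' deposited table was 0.000998. By size, COX8A was 156th of 158 in the authors' deposited table, near the very smallest difference it listed. Outside the table, the only probe set with a member's Bt number was the further BCKDHB probe set, which was not near that limit, with overlapping groups and a log2 difference of 0.16 (SE 0.10 from its own spread).

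Within the insulin group, the members shared their lowest array. Insulin replicate 2 had the lowest signal of its group for 5 of 5 member rows, while it was the lowest insulin array for 30.1% of all probe sets tested. It was also the lowest insulin array for the named list rows IDH3A and PPM1K, but not for VDAC1 and SLC25A5. Insulin replicate 1 was the highest for 4 of 5, BCKDHB being the exception with insulin replicate 3. How often it was the highest over all probe sets was not counted. No control array was lowest for all members, with control replicates 1, 2 and 3 lowest for 2, 1 and 2 members. Over all probe sets tested, the control shares were 41.7%, 26.6% and 31.7%. Deviations from the group means, over the 6 arrays, whose signals share each array's scaling, correlated between members at r from -0.074 (COX8A with BCKDHB) to 0.92 (ATP5MC1 with UQCRFS1). ATP5MC1 and UQCRFS1, of ATP synthase and complex III, thus had the highest r of the 10 member pairs. This was not particular to the members: the deviations of ATP5MC1 had a higher r with POLR2D (0.98) and SLC52A3 (0.94), described below. COX8A and NDUFA11 had an r of 0.75, and BCKDHB and UQCRFS1 one of -0.020.

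**Figure D3:**
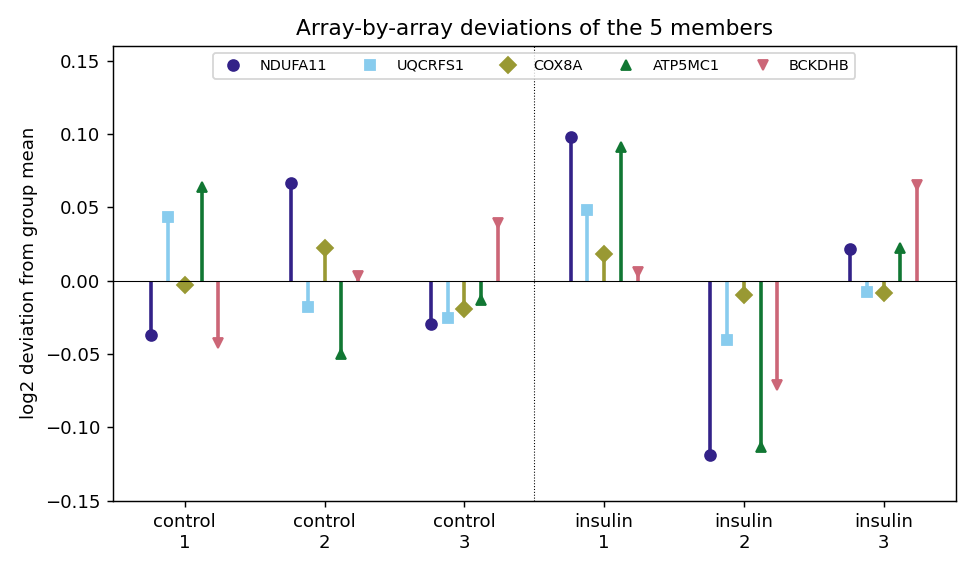
Deviation of each member's log2 signal from the mean of its group (y axis) on each of the 6 arrays (x axis, group and replicate number). Each vertical bar is 1 member on 1 array; all 5 bars of insulin replicate 2 point down, and ATP5MC1 and UQCRFS1 keep the same sign on 5 of the 6 arrays.

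Genes with the pattern most like a member were sought among the 76 other named rows of the authors' deposited table, by Pearson's r over the 6 arrays. Those rows were selected for a difference between the media, so high values were common, with a median absolute r of 0.97 to 0.98 for each member. For ATP5MC1 the closest were POLR2D, a subunit of RNA polymerase II, with an r of 0.998, then UQCRFS1 and the riboflavin transporter SLC52A3, both at 0.997. For UQCRFS1 they included ATP5MC1 at 0.997 and the spindle protein SPAG5 at 0.995. For COX8A they were the splicing factor SRSF2 at 0.996, and the protease inhibitor SERPINA5 and the nuclear pore protein AAAS at 0.995. For BCKDHB they were the galectin LGALS1 at 0.998, and FDFT1 of cholesterol synthesis and FASN of fatty acid synthesis, both at 0.995. For NDUFA11 they were the mevalonate kinase MVK at 0.995, and SPDL1, a spindle protein, and IMPDH1 of guanine nucleotide synthesis, both at 0.991. With group means removed, r was 0.98 for ATP5MC1 with POLR2D. For BCKDHB it was 0.85 with LGALS1, 0.92 with FDFT1 and 0.71 with FASN. The rows were picked by r over these same 6 arrays, whose deviations enter that r. A high r of deviations is therefore partly built in.

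The rest of the pathway could be read only where a row had a name. The 9 lists covered respiratory complexes, ATP synthase, citrate cycle, branched-chain amino acid breakdown, carriers and import and biogenesis regulators. Of their 233 genes, 9 were named in the authors' deposited table, each by 1 row. These 9 include the 5 members, all higher with insulin. Of the 4 other named genes, IDH3A, PPM1K and VDAC1 were higher and SLC25A5 lower. With the members counted, 8 of the 9 rows were higher and 1 lower, while the whole of that table had 90 rows higher and 68 lower. The median log2 difference of the 9 rows, members included, was 0.35, against -0.0011 over all probe sets tested. Rows enter that table only when they differ, so neither the count nor the median describes the lists as a whole. Complex II and the biogenesis regulators had no named row.

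IDH3A, the catalytic subunit of the NAD-dependent isocitrate dehydrogenase of the citrate cycle, read 1045, 952 and 1034 in control medium and 1429, 1360 and 1369 with insulin. Its groups did not overlap, with a log2 difference of 0.45 (limma SE 0.11) that lay between those of UQCRFS1 and NDUFA11. It did not pass the limma threshold without the block or with it, and passed at a filter of 60%, with a trended robust variance or with array weights.

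PPM1K, the mitochondrial phosphatase that switches branched-chain keto acid dehydrogenase on by removing phosphate from its E1 component, is the other named gene of BCKDHB's pathway. Its row read 251, 258 and 263 in control medium and 320, 306 and 320 with insulin, a log2 difference of 0.28 (limma SE 0.11) that did not pass the threshold. As for BCKDHB, a further probe set with its Bt number overlapped between the groups, at 90.0 to 140 in control medium and 81.9 to 133 with insulin. That probe set lay below the filter on dim signals and was not tested. No other gene of the branched-chain list, such as BCKDHA, DBT or BCAT2, had a named row.

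The named rows of the list of carriers and import went in opposite directions. VDAC1, the main channel of the outer membrane, read 3120, 2920 and 2948 in control medium and 3753, 3799 and 3764 with insulin, a log2 difference of 0.33 (limma SE 0.11). A further probe set with the same number had a log2 difference of 0.29, also with no overlap. SLC25A5, a carrier that exchanges ATP made in the matrix for ADP, read 1439, 1464 and 1375 in control medium and 1199, 1185 and 1172 with insulin. All insulin arrays were below all control arrays, as in 11.9% of all probe sets tested, and the log2 difference was -0.26 (limma SE 0.11). Neither VDAC1 nor SLC25A5 passed the limma threshold.

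A further pair of rows with mitochondrial titles, picked after their values were seen, lay outside the lists. The row titled as similar to mitochondrial ribosomal protein L40 read 898, 906 and 932 in control medium and 1174, 1215 and 1151 with insulin, a log2 difference of 0.37 for MRPL40. MTCH2, a protein of the outer membrane, read 1177, 1179 and 1171 in control medium and 1252, 1254 and 1234 with insulin, a log2 difference of 0.084 with no overlap. Its further probe set overlapped, at 1274 to 1432 in control medium and 1295 to 1495 with insulin. MRPL40 and MTCH2 did not pass the limma threshold.

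**Figure D4:**
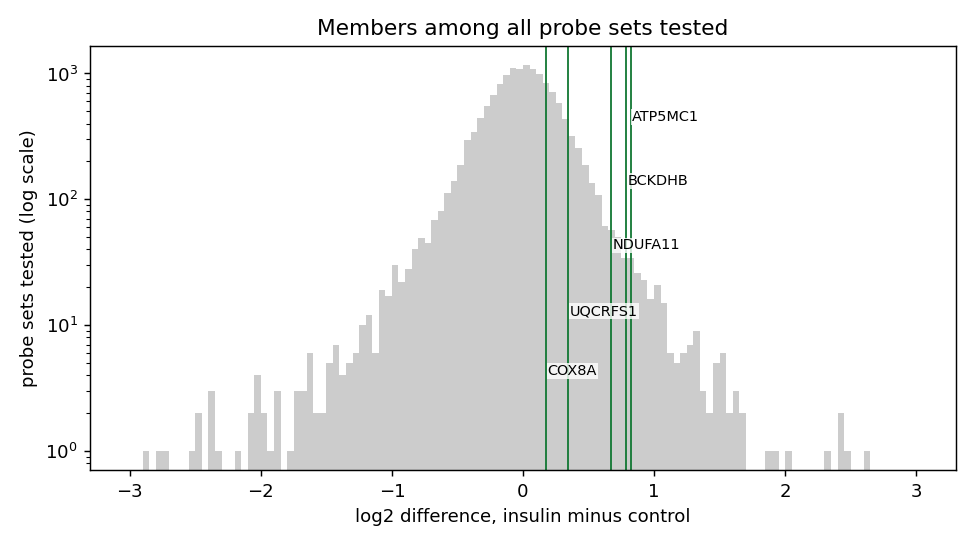
Number of probe sets (y axis, log scale) by log2 difference, insulin minus control (x axis), for the 14410 probe sets tested, with green lines at the 5 members. From the highest difference down, COX8A at 0.18 ranked 3493rd and UQCRFS1 at 0.35 ranked 1432nd. NDUFA11, BCKDHB and ATP5MC1 at 0.67 to 0.82 lie further out on the upper flank of the distribution.

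Array medians ranged from 196 to 212. The limma fit called 326 of 14410 probe sets (2.26%), 170 higher and 156 lower, and 916 (6.36%) with the replicate number as a block. The median log2 difference over all probe sets tested was -0.0011. For 6 control transcripts the balance of 3-prime over 5-prime probe sets, as a log2 ratio, changed from control to insulin by -0.13 (GST) to 0.22 (ef1a), and its part in the members' differences was not tested.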

How the data were processed

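Affymetrix arrays were hybridised with biotin-labelled complementary RNA, per the labels' protocols. Values deposited for each array were linear signal intensity, which the authors had scaled (array upper quartiles 621 to 633). The software was GCOS per the submitters' processing notes, with settings not given in the sources used here. The authors' deposited table gave a log2 ratio, a fold, a p-value and a t score per row, per the file headers, from a test the sources used here do not name. Its 9 per-sample columns, 3 of them with day 0 names, were not used, because no column name identifies a sample analysed here. Of 105 rows with a symbol, 77 matched a RefSeq gene (33 by symbol, 35 by gene number, 9 by synonym), and all 5 members matched. MRPL40 was read from its title.

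Signals were analysed as log2(signal + 16), which understates changes of dim probe sets. Left out were 112 control probe sets and the dimmest 40% by mean over all arrays (mean signal about 122). The media were compared in limma 3.58.1 (R 4.3.3), with p adjusted by Benjamini-Hochberg over 14410 probe sets. All 5 members and the further BCKDHB probe set passed the filter. With 3 arrays per group, precision is limited by the number of arrays. Replicates correlated at 0.953 to 0.980 and were counted singly. Same-numbered arrays deviated together (r = 0.558, 0.313 and 0.422 for numbers 1, 2 and 3), so numbers were treated as pairs in an alternative fit. Differently numbered arrays of the 2 media had r from -0.411 to 0.13. The numbers come from the sample titles, but reading them as pairs rests on these data, not on the labels. The fit was tested on simulated data with 200 changed probe sets, where 67.2% of log2 changes of 1 and 7.14% of those of 0.5 were called.

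Named genes were the members, probe sets sharing their Bt number, every named list row, and for each member the 3 most alike named rows, of which 1 is not reported here. Members and lists were chosen with earlier results of these data known. Planned promoter motif searches were not run, as no promoter sequences were used here. Alternatives covered pseudocount, filter, normalization, variance model, block and leaving out each array. Figures used Python 3.11.15 and matplotlib 3.10.9.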

Additional observations from a re-analysis of the deposited data

How the results depend on the processing

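All members kept their direction under the 16 alternatives, and the further BCKDHB probe set under the 15 that tested it. For the members this largely followed from their choice on this contrast, since all their insulin arrays lay above all their control arrays. Log2 differences ranged from 0.78 to 0.88 for ATP5MC1, 0.76 to 0.82 for BCKDHB, 0.62 to 0.73 for NDUFA11, 0.32 to 0.37 for UQCRFS1, 0.13 to 0.19 for COX8A and 0.079 to 0.25 for the further BCKDHB probe set. The COX8A low was that of quantile normalization. The further MTCH2 probe set, at 0.044, reversed to -0.011 without insulin replicate 1 and reached 0.091 without insulin replicate 2, and the cause was not tested. Of the members, 3 passed the threshold as reported, 0 when dim probe sets were kept or an unmoderated t statistic was used, and 0 to 2 when single arrays were left out. Of the named list rows, which include the members, 3, 0 and 0 to 2 passed under these same settings, all of them members. At an unadjusted p under 0.05, again with the members counted among the list rows, the limma counts were 4 members and 6 list rows when dim probe sets were kept. They were 4 members and 5 to 6 list rows without single arrays, against 5 and 9 with the unmoderated t statistic. These counts follow from how the rows were chosen. Over all probe sets 326 passed, against 2 when dim probe sets were kept, 12 with the unmoderated t statistic, 542 with a trended robust variance, 605 with array weights, 916 with the replicate block, and 3 to 244 without single arrays. The replicate block changed no call among the members or list rows. With 3 arrays per group, simulated log2 changes of 0.5 were called in 7.14% of cases. Changes as small as those of UQCRFS1 and COX8A were not simulated. The simulated noise was also independent between arrays, so how often such differences would be called in these data was not tested.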
